A study of Dirofilaria immitis with 5 samples.

Results

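The miRNA lin-4 was followed through 4 small RNA rows of 1228 in a table made from the culture medium of live Dirofilaria immitis, a filarial nematode known as the dog heartworm. A row is 1 distinct sequence with its read count per library, and the rows were chosen by name: every name that begins with lin-4 after its species prefix. The medium came from 5 kinds of worm: microfilariae, the blood-borne offspring; third-stage larvae (L3), the form that mosquitoes pass on; fourth-stage larvae (L4), which follow after the next molt; adult males; and adult females. Whole worms were kept alive in culture, and RNA was taken from the concentrated medium with a Norgen Biotek kit and made into Illumina TruSeq small RNA libraries. Each kind of worm had 1 library, so nothing below has a replicate check, no p-value was computed, and a difference is one between libraries. The number of worms behind each library is not given in the sources used here, and fewer releasing cells or worms cannot be told apart from less RNA released by each.

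MicroRNAs are short RNAs that lower the output of messenger RNAs, which they recognise mainly through the seed, bases 2 to 8 from the 5′ end. In the free-living nematode Caenorhabditis elegans, lin-4 is absent from the early embryo and accumulates during larval life, when it represses lin-14 and lin-28 and so lets larval cells move on to later fates; let-7 acts after it in the same timing pathway. The vertebrate miR-125 family shares its seed.

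The 4 sequences are shown because the results turn on how nearly alike they are. Capitals mark the seed in the 5p rows, and in the bma-lin-4-p3_1ss11TC row they mark the run that is complementary to that seed.
bma-lin-4: tCCCTGAGacctctgctgcga
asu-lin-4-5p: tCCCTGAGacctctgctgtga
asu-lin-4-5p_1ss21AG: tCCCTGAGacctctgctgtgg
bma-lin-4-p3_1ss11TC: acagcaagagcacCTCAGGGtcc

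The first 3 of these are nearly identical. Counted from 1 at the 5′ end of bma-lin-4, the row asu-lin-4-5p differs by C19T only, and asu-lin-4-5p_1ss21AG differs by C19T and A21G. The changes lie outside the seed, so 3 rows carry the same seed, and 0 other rows in the table carry it. No further row contains a lin-4 sequence or lies within one. The row bma-lin-4-p3_1ss11TC, of 23 nt, does not have that seed. Its longest run complementary to bma-lin-4 is 7 bases and falls on bases 2 to 8, and RNAduplex pairs 15 of the 21 bases of bma-lin-4 with it. Its name carries p3, which the file does not explain, and whether both rows come from 1 hairpin was not checked here. The table also lists matches of its sequences in the genome of the dog, the host of the adult worm, for 56 rows, and 0 of the 4 lin-4 rows are among them.

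The row bma-lin-4 held nearly all lin-4 reads: 31 of 34 in microfilariae, 24320 of 24333 in L3 larvae, 292336 of 292475 in L4 larvae, 11792 of 11808 in adult males and 922 of 930 in adult females. Depth differed between the libraries, which had between 3091465 and 6423977 mappable reads, of which between 0.870% (L3 larvae) and 20.2% (microfilariae) lay in the table. Levels are therefore given below as a share of table reads and per 1000000 mappable reads. Parentheses after a level or fold give the exact 95% binomial interval. It covers counting error only: several PCR reads can come from 1 molecule, and the labels describe no molecular identifiers.

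As a share of the table, bma-lin-4 took 0.00426% (0.00290 to 0.00605) of the microfilarial reads, 70.6% of the L3, 89.6% of the L4, 35.8% of the male and 0.245% (0.230 to 0.261) of the female reads. It ranked 86 among the rows of the microfilarial library and 27 among those of the female library, and it ranked 1 in the other libraries. Per 1000000 mappable reads the levels were 8.62 (5.86 to 12.2) in microfilariae, 6139 (6062 to 6216) in L3 larvae, 45507 (45346 to 45669) in L4 larvae, 3581 (3517 to 3646) in adult males and 298 (279 to 318) in adult females. The descending order was L4 larvae, L3 larvae, adult males, adult females and microfilariae on both scales, and no neighbours in this order had overlapping counting intervals. Whether neighbours differ beyond the spread between cultures cannot be said from 1 library each.

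**Figure D1:**
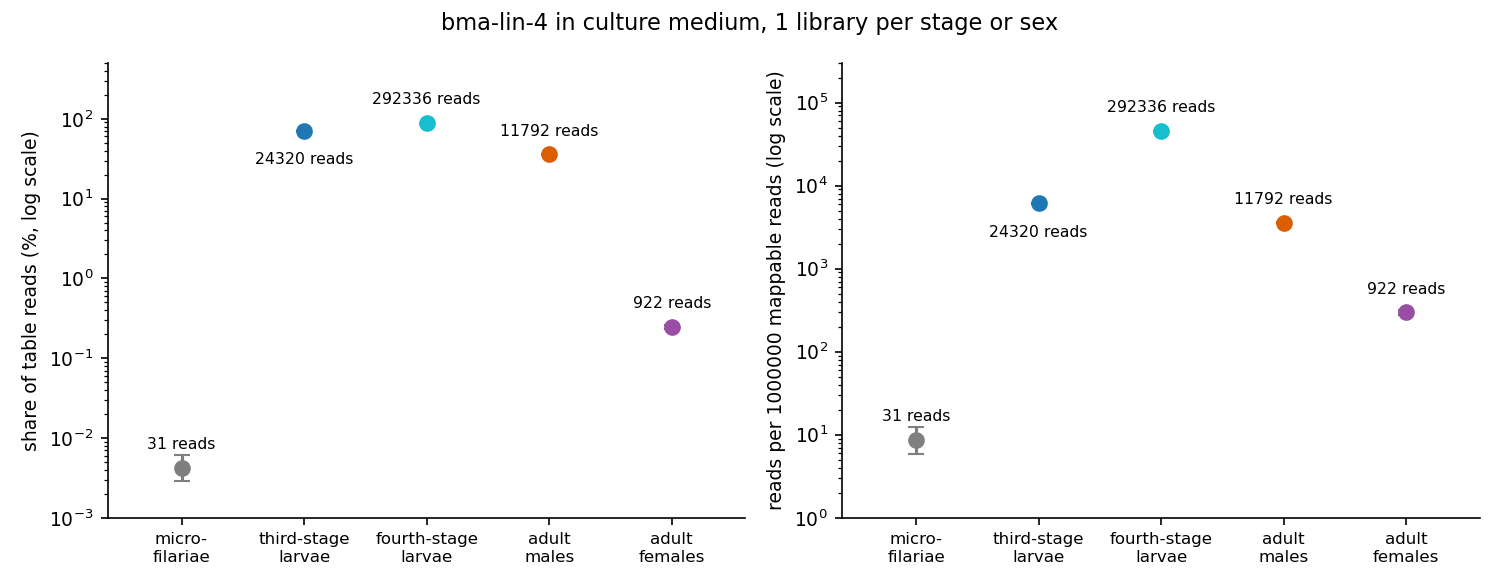
Level of bma-lin-4 in the 5 libraries as a share of table reads (left, %, log scale) and per 1000000 mappable reads (right, log scale); points are single libraries, labelled with their reads, and bars are exact 95% counting intervals. The larval and male libraries stand above the female library, and the microfilarial library, with 31 reads, is lowest on both scales.

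The distance to the next row showed how far lin-4 stood above the rest. In L4 larvae it had 38.7 reads for each read of bma-miR-92_R+2, the row below it. In L3 larvae it had 7.56 reads for each read of the candidate PC-3p-389_2939, and in adult males 2.41 for each read of bma-miR-100d_R+1. In adult females its 922 reads lay between cel-miR-1-3p_R-1 with 989 and PC-5p-700_1781 with 917. In microfilariae its 31 reads lay between asu-miR-87b-5p_2ss8AG13AC with 32 and asu-miR-5361-5p_1ss22TG with 30, and such gaps are within counting error.

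The infective larvae were set against the blood stage first. L3 larvae had 24320 reads of bma-lin-4 and microfilariae 31, and the share was 16557-fold (11662 to 24374) higher in L3 larvae. Per mappable read the fold was 712 and with the authors' library size parameter 101051, so its size depends on the scaling while its direction does not. By share, 11.3% of the 151 rows that reached 10 reads in one library or the other had a ratio of at least 2 towards L3 larvae. With bma-lin-4 at 70.6% of the L3 table, less share is left there for the other rows. The 11.3% is thus not independent of bma-lin-4. Rows with 0 reads in L3 larvae are among the 151 but could not be called higher. For some of them the bound does not exclude a 2-fold rise, as for PC-5p-156219_3 with 0 against 10 reads and a log2 bound of 2.66. The fold of bma-lin-4 ranked 2 from the top, by the ratio or, for a row with 0 reads, by its bound; the candidate PC-3p-389_2939, with 3219 reads against 0 and inexact matches in the dog genome, ranked above it. The row asu-lin-4-5p had 12 reads in L3 larvae and 0 in microfilariae, where 3 counts are 0.000413% of the table, and it was at least 84.4-fold higher in L3 larvae; with the counting error of its 12 reads the interval begins at 58.6. Per mappable read the bound was 3.63, with an interval from 2.52.

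The larval stages on either side of the molt were closer. L4 larvae had 89.6% (89.5 to 89.7) and L3 larvae 70.6% (70.1 to 71.1) of their table reads in bma-lin-4, a 1.27-fold (1.25 to 1.29) higher share in L4 larvae. A share cannot pass 100%, and per read outside the lin-4 rows, a scale without that ceiling, the fold was 3.61. The table took 5.08% of the mappable reads in L4 and 0.870% in L3 larvae. Per mappable read, where bma-lin-4 was far below the ceiling, the fold was 7.41. With rows listed as matching the dog genome left out of the totals it was 1.09. By share, 6.06% of the 66 rows with enough reads were at least 2-fold higher in L4 larvae, and bma-lin-4 was not one of them. Its larger share in L4 larvae leaves less for the other rows, so the 6.06% is not independent of it. The row asu-lin-4-5p had 132 reads in L4 and 12 in L3 larvae, a 1.16-fold (0.643 to 2.31) difference in share that includes equal levels; without the dog-matched rows it was 0.993, and per mappable read it was 6.78-fold (3.76 to 13.5) higher in L4 larvae.

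Both adult libraries were below the L4 library, and by different amounts. Adult males had 35.8% (35.2 to 36.3) against 89.6% in L4 larvae, a ratio of 0.399 (0.392 to 0.406) by share and 0.0787 per mappable read. By share, 10.4% of 77 rows were at least 2-fold lower in males, and bma-lin-4 was 1 of these 8 rows. The median log2 ratio of the 77 rows, bounds included, was 2.84. With bma-lin-4 at 89.6% of the L4 table, the other rows have little share there. The 10.4% is thus not independent of bma-lin-4. Adult females had 0.245% against the same 89.6%, a ratio of 0.00274 (0.00256 to 0.00292) by share and 0.00655 per mappable read. Of 148 rows 11.5% were at least 2-fold lower in females than in L4 larvae, and the ratio of bma-lin-4 ranked 2 from the lowest. The median log2 ratio of the 148 rows was 3.07, and the same limit applies to the 11.5%. For asu-lin-4-5p, 10 reads in males against 132 in L4 larvae gave a ratio of 0.749 (0.351 to 1.42) by share, which does not exclude equal shares, and 0.148 per mappable read. In females 3 reads against 132 gave a ratio of 0.0197 (0.00401 to 0.0589) by share.

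The sexes were set against each other as well. Adult males had 11792 reads of bma-lin-4 and adult females 922, although all rows together summed to 32983 reads in males and 376070 in females. The share was 146-fold (136 to 156) higher in males, and 20% of 140 rows were at least 2-fold higher there. Only cel-mir-5592-1-p3_1ss8TC, with 513 reads in males against 29 in females, had a higher ratio or bound than bma-lin-4 in this comparison. Per mappable read the fold was 12.0 (11.2 to 12.9); the table took 1.002% of the mappable reads in males and 12.2% in females. The row asu-lin-4-5p had 10 reads in males and 3 in females, 38.0-fold (9.79 to 215) by share and 3.13-fold (0.806 to 17.7) per mappable read, which includes equal levels.

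**Figure D2:**
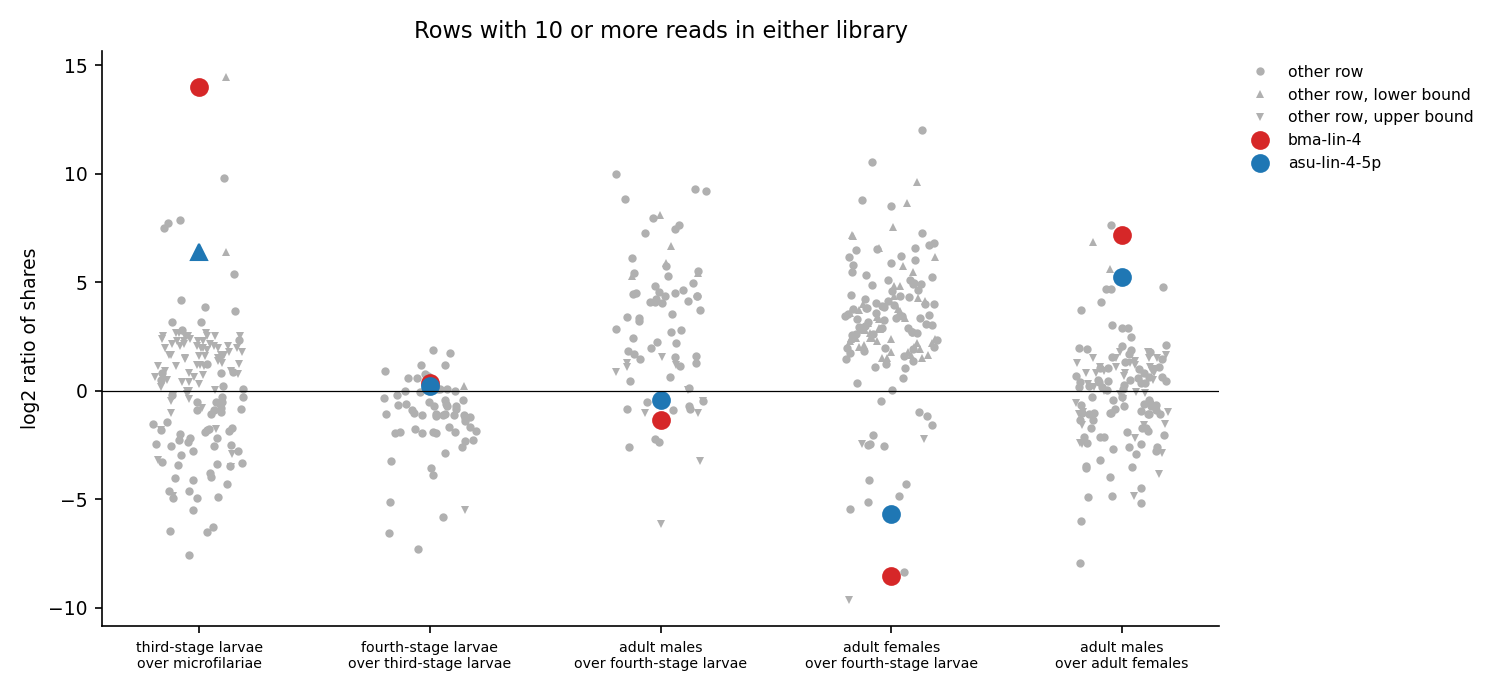
Log2 ratio of shares for every row with 10 or more reads in either library, in 5 comparisons named under the axis with the numerator first; grey points are other rows, triangles mark bounds where 1 library had 0 reads, and red and blue points are bma-lin-4 and asu-lin-4-5p. bma-lin-4 ranked 2 from the top in L3 larvae over microfilariae and in males over females, and 2 from the bottom in females over L4 larvae.

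Females were above microfilariae, which adult females carry and release. Adult females had 922 reads and microfilariae 31, 57.5-fold (40.2 to 85.1) higher in females by share, and 42.5% of 174 rows were at least 2-fold higher there, so this direction was a common one. The size was less common: bma-lin-4 ranked 11 from the top. Its log2 ratio was 5.85, against a median of 0.0982 over the 174 rows, bounds included. In females over L3 larvae the share ratio was 0.00347 (0.00325 to 0.00371), and 9.86% of 142 rows were at least 2-fold lower in females. In males over L3 larvae it was 0.506 (0.495 to 0.518), just inside 2-fold, while 19% of 63 rows were at least 2-fold lower in males. The median log2 ratio of all ranked rows was 0.965 in females and 2.18 in males over L3 larvae, whose table bma-lin-4 also dominates. The share taken by bma-lin-4 in males was 8385-fold (5904 to 12346) above that in microfilariae, a comparison in which 27.8% of 151 rows were at least 2-fold higher in males. The share in L4 larvae was 21018-fold (14807 to 30935) above that in microfilariae, a comparison in which 11.5% of 157 rows were at least 2-fold higher in L4 larvae. In both of these comparisons bma-lin-4 ranked 1 from the top. The 27.8% and the 11.5% are not independent of bma-lin-4, which takes much of the male and L4 tables. Over the alternative scalings, the ratio lay between 34.6 and 67.8 in females over microfilariae, between 0.000671 and 0.0486 in females over L3 larvae, between 0.0746 and 0.583 in males over L3 larvae, between 415 and 13060 in males over microfilariae, and between 5278 and 237394 in L4 larvae over microfilariae.

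The order of the libraries was the same under each of 9 scalings tried. Set to 100% in L4 larvae, bma-lin-4 lay between 13.5% (mappable reads) and 92.1% (dog-matched rows left out) in L3 larvae, between 4.20% and 44.4% in adult males, between 0.0283% and 0.655% in adult females, and between 0.000421% and 0.0189% in microfilariae. The lowest male value lay above the highest female value, and the lowest female value above the highest microfilarial one. The L3 and male ranges overlapped across scalings, but within each scaling L3 larvae were higher.

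**Figure D3:**
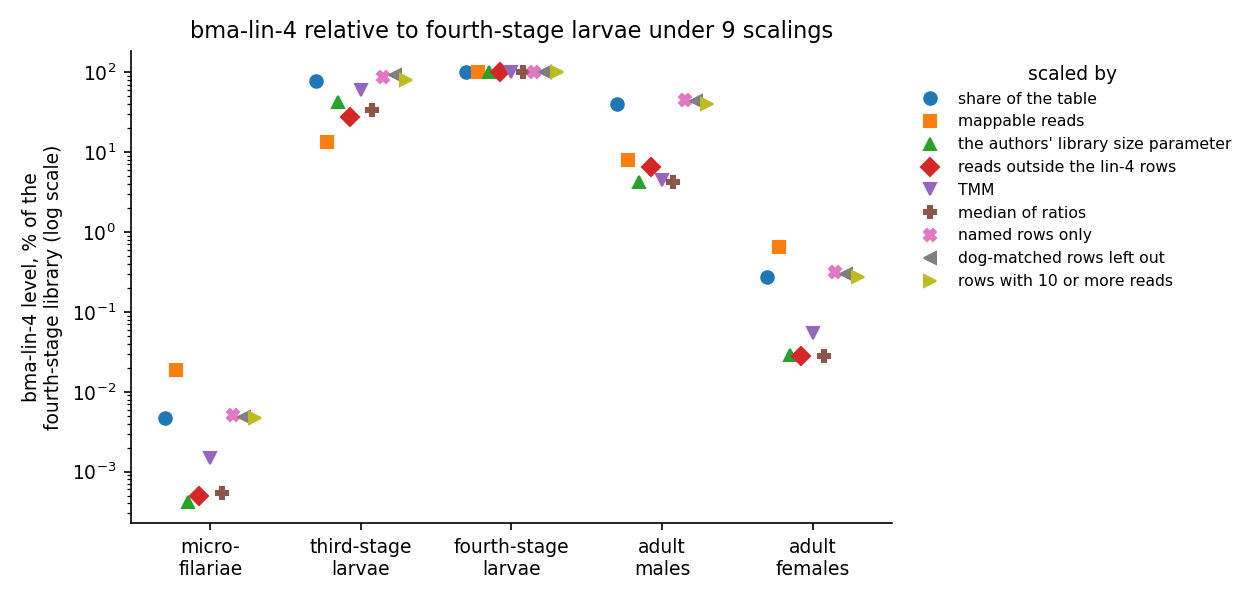
Level of bma-lin-4 as a percentage of the L4 library (log scale) in each library; each marker is 1 of 9 scalings, and the L4 library is 100% by construction. The libraries keep their order under each scaling, from L4 larvae down to microfilariae at 0.0189% or less.

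Ratios between rows of the same library do not depend on the scaling. The row asu-lin-4-5p had 0.493 reads (0.255 to 0.862) per 1000 bma-lin-4 reads in L3 larvae, 0.452 (0.378 to 0.535) in L4 larvae, 0.848 (0.407 to 1.56) in adult males and 3.25 (0.670 to 9.54) in adult females, the last from 3 reads. These intervals overlap between L3 larvae, L4 larvae and males, and the female interval lies above the L4 one alone. In microfilariae there were 0 reads against 31, for which the exact interval reaches 126 per 1000 and the limit of 3 counts is 96.8. The rarer asu-lin-4-5p_1ss21AG had 0 reads in microfilariae, 1 in L3 larvae, 4 in L4 larvae, 1 in adult males and 0 in adult females. Among the 10 rows with the highest count in any single library, 3 had a row of the same length that differs at 1 base, bma-lin-4 among them. Whether the lin-4 variant rows are separate transcripts, edited forms or sequencing errors was not tested.

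The counts of the p3 row did not follow those of bma-lin-4. bma-lin-4-p3_1ss11TC had 3 reads in microfilariae, 0 in L3 larvae, 3 in L4 larvae, 5 in adult males and 5 in adult females. Per 1000000 mappable reads this was 0.834 (0.172 to 2.44) in microfilariae, 0 (up to 0.931) in L3 larvae, 0.467 (0.0963 to 1.36) in L4 larvae, 1.52 (0.493 to 3.54) in adult males and 1.62 (0.525 to 3.77) in adult females. All these intervals overlap. By share of the table the male interval lay above those of microfilariae, L4 larvae and females and overlapped that of L3 larvae: the row held 0.000413% (8.51e-05 to 0.00121) in microfilariae, 0 (up to 0.0107%) in L3 larvae, 0.000920% (0.000190 to 0.00269) in L4 larvae, 0.0152% (0.00492 to 0.0354) in adult males and 0.00133% (0.000432 to 0.00310) in adult females. Its share was 11.4-fold (2.62 to 49.5) higher in males than in females, from 5 reads each, a fold that is not seen per mappable read. Set against bma-lin-4 in its own library, the row had 96.8 reads (18.9 to 310) per 1000 in microfilariae, 0 (up to 0.152, and 0.123 at the limit of 3 counts) in L3 larvae, 0.0103 (0.00212 to 0.0300) in L4 larvae, 0.424 (0.138 to 0.990) in adult males and 5.42 (1.76 to 12.7) in adult females. The ratio was thus highest where bma-lin-4 was scarce. With 5 or fewer p3 reads in each library, this order follows the bma-lin-4 count in the denominator. For comparison, chosen after the values were seen, asu-miR-71-3p had 0.402 reads per 1000 asu-miR-71-5p_R-2 reads in microfilariae and 0.537 in adult females. The row bma-mir-100a-p3 had 0.227 per 1000 bma-miR-100a_R+1 reads in microfilariae and 0.449 in adult females, and bma-mir-57-p3_1ss5GA had 0.298 per 1000 bma-miR-57 reads in microfilariae and 1.06 in adult females. In adult females asu-let-7-3p_L+2R-1 had 7.19 per 1000 asu-let-7-5p reads, from 2 reads against 278, which is above the lin-4 value there, and in microfilariae it had 0 reads against 175. In L4 larvae bma-mir-100a-p3 had 1.05 per 1000 from 4 reads and asu-let-7-3p_L+2R-1 0.213 from 1 read, both above the lin-4 value of 0.0103. There asu-miR-71-3p had 0 reads against 298 and bma-mir-57-p3_1ss5GA 0 against 2403. Each of these comparison rows had 0 reads in L3 larvae and in adult males.

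**Figure D4:**
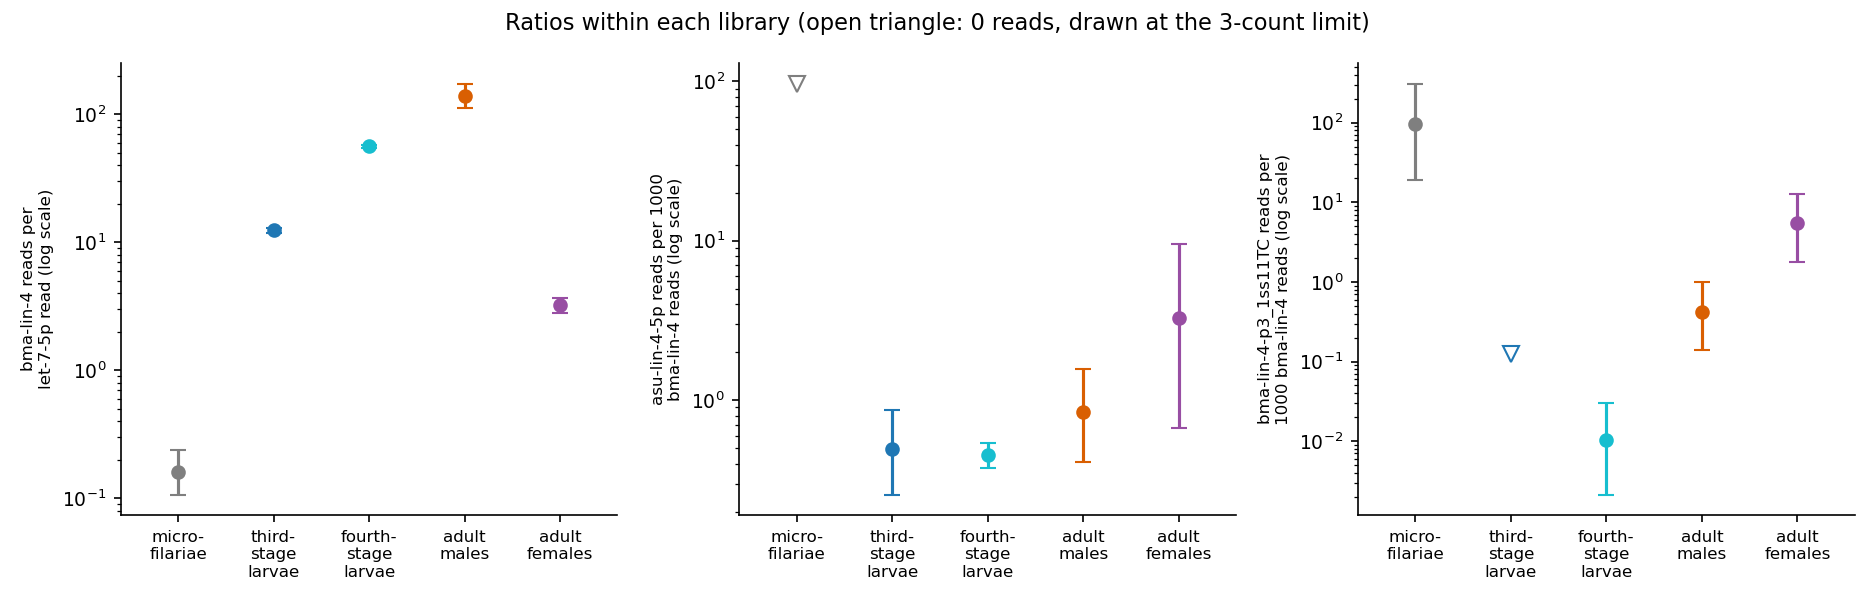
Ratios of reads within each library, all on log scales: bma-lin-4 per let-7-5p read (left), asu-lin-4-5p per 1000 bma-lin-4 reads (middle) and bma-lin-4-p3_1ss11TC per 1000 bma-lin-4 reads (right); points are single libraries, bars are exact 95% counting intervals and open triangles are 0 reads drawn at the limit of 3 counts. The ratio of bma-lin-4 to let-7-5p runs from 0.161 in microfilariae to 139 in adult males, and the p3 ratio is highest in microfilariae.

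The other developmental timing miRNAs were taken from a list of names: let-7 and its C. elegans relatives miR-48, miR-84 and miR-241, and the lin-4 relatives miR-237 and miR-125. Rows were present for let-7 and miR-84 only. The main let-7 row is asu-let-7-5p, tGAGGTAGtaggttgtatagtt with its seed in capitals, and it shares no seed with lin-4. It had 175 reads in microfilariae, 1795 in L3 larvae, 4684 in L4 larvae, 80 in adult males and 278 in adult females. Like bma-lin-4 it was most abundant in the larvae on both scales. Between the sexes its direction depended on the scale: it held 0.243% of the table in males and 0.0739% in females, but 24.3 (19.3 to 30.2) per 1000000 mappable reads in males and 89.9 (79.7 to 101) in females, whereas bma-lin-4 was higher in males on both. Over the 3 let-7-5p rows together, bma-lin-4 had 0.161 reads (0.107 to 0.237) per let-7-5p read in microfilariae, 12.4 (11.8 to 13.0) in L3 larvae, 56.3 (54.8 to 57.9) in L4 larvae, 139 (112 to 174) in adult males and 3.24 (2.83 to 3.71) in adult females. Microfilariae were the library in which let-7 outnumbered lin-4. All 3 let-7-5p rows match the dog genome exactly, so reads of host origin cannot be told apart from worm reads there, and their part in this ratio was not tested. The rows bma-let-7-p3 and asu-let-7-3p_L+2R-1 had at most 2 reads in any library. asu-miR-84-5p_R-5, which has the let-7 seed, had 4 reads in L4 larvae and 0 elsewhere.

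Rows whose pattern was most like that of bma-lin-4 were ranked by the root mean square difference of centred log2 shares over the 5 libraries, among the 100 other rows whose highest count was 50 reads or more. Their median difference was 6.54 on the log2 scale. The nearest was bma-miR-5364 at 2.65, and its sequence is shown since its seed, in capitals, differs from that of asu-let-7-5p by G8T alone: cGAGGTATtgtttattggctga. It had 4 reads in microfilariae, 171 in L3 larvae, 1083 in L4 larvae, 149 in adult males and 425 in adult females. It was low in microfilariae as bma-lin-4 was, yet its share lay between 0.113% and 0.496% in the others, at 0.496% in L3 larvae, 0.332% in L4 larvae, 0.452% in adult males and 0.113% in adult females. The next were asu-lin-4-5p at 2.89, PC-3p-42148_13 at 3.10, cel-let-7-5p_R+1 at 3.24 and PC-3p-389_2939 at 3.33; the last had 3219 reads in L3 and 2060 in L4 larvae and 0 elsewhere. Of these 5 rows PC-3p-42148_13, cel-let-7-5p_R+1 and PC-3p-389_2939 also have dog genome matches in the table; those of cel-let-7-5p_R+1 include exact ones and those of both candidates are inexact. Rows with 0 reads entered at 3 counts, asu-lin-4-5p in microfilariae among them, while counts of 1 or 2 entered unchanged. A count of 1 or 2 thus entered below a count of 0. This affects PC-3p-42148_13, with 1 read in microfilariae, 1 in adult males and 2 in adult females. Of 101 rows, bma-lin-4 included, 3 had the same descending order of shares: bma-lin-4, asu-lin-4-5p and bma-miR-92_R+2. The row asu-lin-4-5p is the C19T variant of bma-lin-4, and whether its counts are independent of that row was not tested. The order says nothing about size. Every share ratio of bma-miR-92_R+2 between libraries was inside 2-fold, while bma-lin-4 was 21018-fold higher in L4 larvae than in microfilariae. For asu-lin-4-5p the counting intervals of the L4, L3 and male shares overlap, so its order among these libraries is not settled. Whether more rows share the order than by chance was not tested.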

How the data were processed

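The submitters' processing notes name bcl2fastq 1.8.4 and Bowtie. Reads were trimmed of the 3′ adapter and kept at 18 to 25 nt, per the file headers. Not given in the sources used here are the genome build, the aligner settings and the release of the miRNA database. The deposited raw columns hold estimated counts per distinct sequence, not normalized, and were rounded to whole numbers; 43, 7, 7, 9 and 48 values were fractional in microfilariae, third-stage larvae, fourth-stage larvae, males and females, 0 of them in lin-4 rows. The authors' normalized signal columns are the raw count divided by 1 library size parameter per library, which was checked for every value; they served as an alternative scaling. Of the table's lines, 1 is not analysed here.

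Table totals were 727018, 34448, 326187, 32983 and 376070 reads in that order of libraries. Shares have exact Clopper-Pearson intervals and folds exact conditional binomial intervals. A row with 0 reads was bounded at 3 counts in its library, and no fold was given where both libraries had 3 reads or fewer. Folds were computed for 10 pairs of libraries, and every row with 10 or more reads in either library was ranked. The percentages of rows at least 2-fold higher or lower count a row with 0 reads only where its bound reaches 2-fold in that direction. Such a row otherwise stays in the denominator. The intervals were tested on simulated counts drawn with counting error only. That test does not cover spread between cultures or PCR copies. Alternatives were mappable reads, the authors' parameter, reads outside lin-4, TMM (edgeR 4.0.16), median of ratios over the 62 rows above 0 in every library, only the 173 rows named after known miRNAs, dog-matched rows left out, and rows with 10 or more reads in all. Python 3.11.15, scipy 1.17.1, R 4.3.3 and ViennaRNA 2.7.2 were used. The rows described in the text were the lin-4 rows, rows sharing their seed or sequence, the timing list, the 5 most alike rows and the neighbours of bma-lin-4 in rank; rows and lists were chosen with earlier results of these data known.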

Additional observations from a re-analysis of the deposited data

How the results depend on the processing

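No replicates exist, so none could be left out, and no paired analysis was possible because each group has 1 library. For bma-lin-4, 0 of 80 folds under the alternatives, over 10 comparisons, lay on the other side of 1 from the share ratio. The sizes moved. In third-stage larvae over microfilariae the fold was 712 per mappable read, 101051 with the authors' parameter, 56385 per read outside lin-4, 40301 under TMM and 63094 under median of ratios. In fourth-stage over third-stage larvae these were 7.41, 2.35, 3.61, 1.67 and 2.94, with 1.15 on the 173 rows named after known miRNAs and 1.09 without dog-matched rows. In females over fourth-stage larvae they were 0.00655, 0.000286, 0.000283, 0.000544 and 0.000283, with 0.00315 and 0.00296. In males over fourth-stage larvae they were 0.0787, 0.0420, 0.0642, 0.0446 and 0.0425, with 0.444 and 0.431. In males over females the fold was 12.0 per mappable read, 227 per read outside lin-4 and 82.1 under TMM. These differences are those of the denominators, since the bma-lin-4 reads are the same in each. For asu-lin-4-5p, 2 of 72 folds lay on the other side of 1, and both had share ratios whose interval includes 1: fourth-stage over third-stage larvae at 0.993 without dog-matched rows, and males over third-stage larvae at 1.002 per mappable read. Depth limits the minor rows most: 3 counts are 0.00871% of the third-stage table and 0.00910% of the male table.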

Other observations

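With the lin-4 rows taken out of the totals, the rest of the larval libraries became visible. Of the 33712 remaining reads in fourth-stage larvae, bma-miR-92_R+2 held 22.4%, asu-let-7-5p 13.9% and bma-miR-100a_R+1 11.3%; of the whole table they held 2.32%, 1.44% and 1.16%. Third-stage larvae had 10115 remaining reads, of which PC-3p-389_2939, a candidate with inexact dog genome matches, took 31.8% (30.9 to 32.7), asu-let-7-5p 17.7% and bma-miR-100b_R+1 10.2%. In adult males the leading remaining row was bma-miR-100d_R+1 at 23.1% (22.6 to 23.7) of 21175 reads, against 22.5% (22.3 to 22.6) of 375140 reads in adult females. By share of the whole table the same row held 14.9% in males and 22.4% in females.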
